A study of Mus musculus with 18 samples.

Results

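The Fc receptors of the mouse dorsal root ganglion culture were followed as 5 genes, the inhibitory IgG receptor Fcgr2b, the activating IgG receptors Fcgr1, Fcgr3 and Fcgr4, and Fcer1g, the signalling chain that the activating receptors share. They were chosen by name and found by matching array accessions to RefSeq symbols, which gave 1 probe per gene. These are 5 of the 20145 gene symbols on the array and 5 of the 22855 features tested, and all 5 passed the filter on dim probes. Total RNA came from explants of dorsal root ganglia, taken from pooled C57BL/6J embryos at embryonic day 13.5 and grown on matrigel for 12 days in growth medium. Cultures were then collected just before myelination medium was given (day 0), after 10 days in it, at early myelination, and after 22 days, when mature sheaths were plentiful. No culture kept without the medium until day 10 or 22 was analysed, so an effect of the medium and one of culture age cannot be told apart. Each day had 3 batches, which are separate pools of embryos, with 2 arrays from each batch, or 6 arrays per day and 18 in all.

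Fcγ receptors bind the constant part of IgG and link antibody to phagocytes and other leukocytes. The activating receptors have no signalling motif of their own and pair with the Fcer1g product, whose ITAM is phosphorylated by Src-family kinases and then recruits the kinase Syk. Fcgr2b carries an ITIM in its own tail, which recruits the lipid phosphatase SHIP1, the product of Inpp5d, and sets a limit to signals from the activating receptors on the same cell. In peripheral ganglia and nerve these receptors are best known from resident and recruited macrophages.

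Between 54.8 and 61.5% of the 59305 spots for genes on an array were well above background. A level is the log2 signal minus log2 of that array's 75th percentile, so 0 is the 75th percentile, and levels of different probes cannot be set against each other. Schwann cell and neuron markers were present on all 3 days. The summed level of 6 Schwann cell markers was 8.48 to 8.86 on day 0, 8.67 to 9.03 on day 10 and 8.23 to 9.04 on day 22, and that of 6 neuron markers was 8.12 to 8.93, 8.48 to 9.10 and 7.96 to 8.88 on the same days. The array files and the authors' value table place 12 of the 18 arrays under different batches of the same day. For the 5 receptor genes the 2 arrays of a batch differed by a median of 0.92 (0.027 to 2.31) with the placement of the array files and 0.65 (0.015 to 2.17) with that of the value table. On day 0, array 1 of batch 2 and array 2 of batch 3 were the lowest 2 arrays for all 5 genes, and the value table places both in batch 3. Values are from a limma fit with the array files' batches unless said otherwise. The words rose and fell are kept for genes with an adjusted p under 0.05 under both placements. P-values with the value table's batches as a replicate block are given where they change a call.

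The upstream sequences of the 5 genes are given before their levels are compared. Each window runs from 250 bases before to 50 bases after the annotated start, from RefSeq on GRCm38.p6, written 5′ to 3′ on the gene's strand. The windows are chr1:170976022-170976321 (minus strand) for Fcgr2b, chr3:96293920-96294219 (minus) for Fcgr1, chr1:171059354-171059653 (minus) for Fcgr3, chr1:171018676-171018975 (plus) for Fcgr4 and chr1:171234300-171234599 (minus) for Fcer1g. Capitals mark GAGGAA on either strand, the core of many binding sites of the myeloid factor PU.1. The motif was chosen after these sequences had been read.
Fcgr2b: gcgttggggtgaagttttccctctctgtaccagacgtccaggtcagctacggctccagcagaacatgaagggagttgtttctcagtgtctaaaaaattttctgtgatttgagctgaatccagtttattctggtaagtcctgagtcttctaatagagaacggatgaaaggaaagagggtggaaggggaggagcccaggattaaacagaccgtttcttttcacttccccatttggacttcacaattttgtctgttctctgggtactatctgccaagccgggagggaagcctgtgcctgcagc
Fcgr1: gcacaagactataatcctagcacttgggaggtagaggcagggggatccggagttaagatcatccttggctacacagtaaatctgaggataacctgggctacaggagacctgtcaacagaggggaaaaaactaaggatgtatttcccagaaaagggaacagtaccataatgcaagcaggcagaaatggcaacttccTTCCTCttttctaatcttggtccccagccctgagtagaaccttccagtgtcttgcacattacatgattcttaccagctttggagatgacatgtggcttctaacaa
Fcgr3: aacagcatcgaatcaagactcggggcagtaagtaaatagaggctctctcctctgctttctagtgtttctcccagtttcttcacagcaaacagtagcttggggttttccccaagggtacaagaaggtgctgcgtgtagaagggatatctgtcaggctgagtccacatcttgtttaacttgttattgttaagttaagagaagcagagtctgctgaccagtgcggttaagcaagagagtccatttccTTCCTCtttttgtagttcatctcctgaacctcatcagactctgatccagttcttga
Fcgr4: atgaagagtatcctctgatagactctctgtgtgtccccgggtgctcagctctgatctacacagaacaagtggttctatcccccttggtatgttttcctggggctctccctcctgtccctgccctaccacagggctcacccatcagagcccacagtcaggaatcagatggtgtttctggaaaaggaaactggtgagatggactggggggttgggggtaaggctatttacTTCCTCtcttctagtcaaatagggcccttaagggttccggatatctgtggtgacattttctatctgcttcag
Fcer1g: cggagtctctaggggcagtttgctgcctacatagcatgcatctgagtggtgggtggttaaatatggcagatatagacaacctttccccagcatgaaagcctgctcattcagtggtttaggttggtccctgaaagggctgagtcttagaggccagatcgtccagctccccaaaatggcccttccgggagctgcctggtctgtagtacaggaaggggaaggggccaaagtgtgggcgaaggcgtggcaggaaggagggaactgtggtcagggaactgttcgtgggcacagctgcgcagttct
GAGGAA was found in 3 of the 5 windows, those of the activating receptors Fcgr1, Fcgr3 and Fcgr4, each time on the strand opposite to the gene, and these letters were not in the windows of Fcgr2b and Fcer1g. The match began 55 bases before the annotated start in Fcgr1, 6 before it in Fcgr3 and 22 before it in Fcgr4 (positions -55, -6 and -22). Fcgr3 had 2 RefSeq windows, of which only the first is shown and was searched. Of 32851 RefSeq promoter windows of this length, 28.3% hold GAGGAA on either strand. The shorter GGAA within the motif does stand in the windows of Fcgr2b and Fcer1g. Binding of PU.1 to any of the windows was not tested.

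Fcgr2b, the inhibitory receptor, had the largest change of the 5 genes in each interval, except on slide 1 alone, where Fcgr4 and Fcgr1 changed more between days 10 and 22 (3.61 and 3.33, against 2.89 for Fcgr2b). Its level was -4.07 to -1.76 on day 0 (median -2.28), -0.19 to 1.22 on day 10 (median 0.59) and 2.29 to 3.85 on day 22 (median 3.03). The 6 arrays of each day lay above all arrays of the day before, with no overlap. Fcgr2b rose by 3.26 ± 0.27 log2 (SE, n = 3 batches), or 9.60-fold, between days 0 and 10 (limma, adjusted p = 0.000302, and 0.00954 with the value table's batches). It rose by 5.74 ± 0.27, or 53.5-fold, between days 0 and 22 (adjusted p = 8.24e-06 and 0.000270). Between days 10 and 22 the difference was 2.48 ± 0.27, with adjusted p = 0.00295, 0.0585 with the value table's batches and 0.0308 when those batches also entered as a replicate block. The probe stands on 10 spots of each array, and the SD between the 8 to 10 spots used within an array had a median of 0.080 log2 (0.045 to 0.25).

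**Figure D1:**
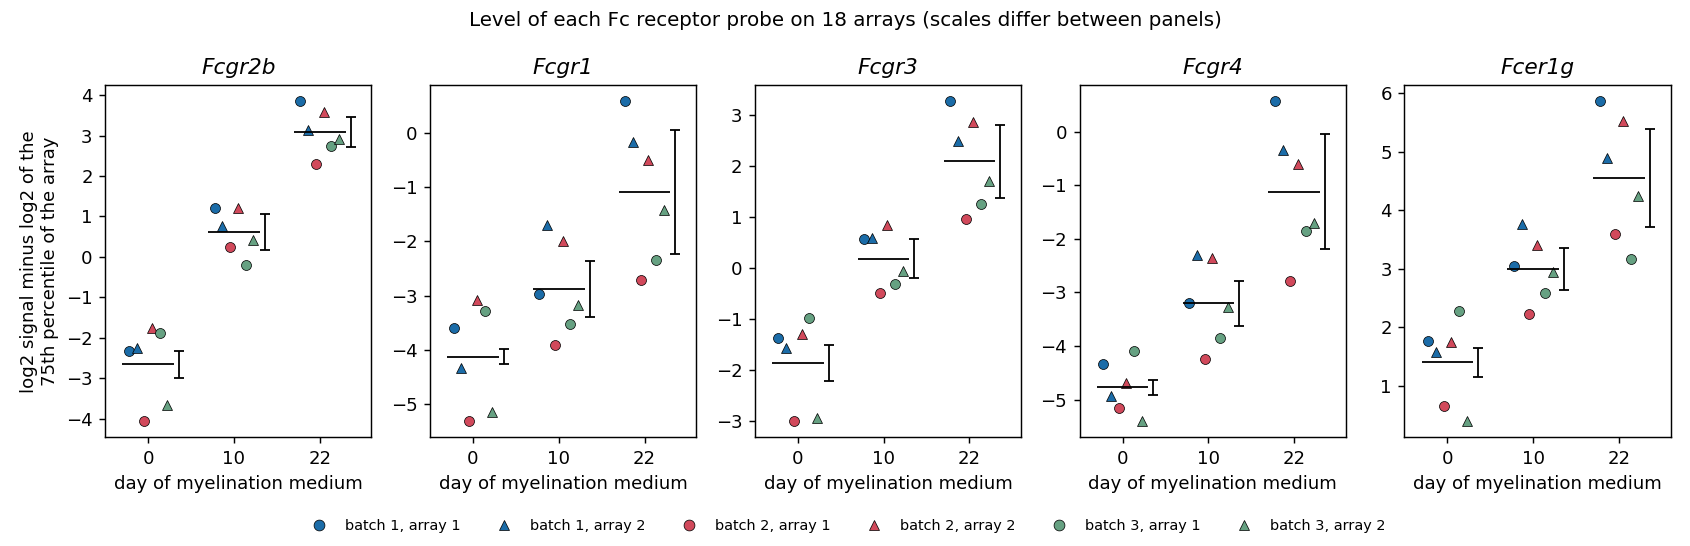
Level of each Fc receptor probe on the 18 arrays by day of myelination medium, as log2 signal minus log2 of the array's 75th percentile. Points are arrays, coloured by batch and shaped by array, bars are the mean of 3 batches and error bars its SD between batches with the placement of the array files. For Fcgr2b the 3 days do not overlap, from -4.07 at the lowest on day 0 to 3.85 at the highest on day 22.

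Among the activating receptors, Fcgr3, a low-affinity receptor for IgG complexes, had the largest change between days 0 and 22. Its level was -3.01 to -0.97 on day 0 (median -1.47), -0.49 to 0.84 on day 10 (median 0.25) and 0.96 to 3.27 on day 22 (median 2.10), again with no overlap between days. Fcgr3 rose by 3.95 ± 0.36 log2, or 15.4-fold, over the whole course (adjusted p = 9.56e-05, and 0.00178 with the value table's batches). Its rise between days 0 and 10 passed narrowly with the value table's batches (adjusted p = 0.00454 and 0.0490). Between days 10 and 22 the adjusted p was 0.0170, 0.133 with the value table's batches and 0.0352 with their replicate block.

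Fcgr4, an activating receptor of monocytes, macrophages and neutrophils, was dim on day 0, at -5.41 to -4.09 (median -4.81). It reached -4.24 to -2.29 on day 10 (median -3.23) and -2.79 to 0.58 on day 22 (median -1.15). Arrays of day 10 overlapped those of both other days, while days 22 and 0 did not overlap. Fcgr4 rose by 3.65 ± 0.47 log2, or 12.6-fold, between days 0 and 22 (adjusted p = 0.000509 and 0.00184). For the steps between neighbouring days the differences were 1.57 ± 0.47 and 2.08 ± 0.47, with adjusted p = 0.0376 and 0.0318, 0.0836 and 0.0925 with the value table's batches, and 0.0187 and 0.0312 with their replicate block. With a normexp background correction the difference between days 10 and 0 was 0.73 (adjusted p = 0.170) and that between days 22 and 0 was 2.21.

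Fcgr1, the high-affinity IgG receptor, was also dim, and on day 0 it was well above background on 5 of 6 arrays. Its level was -5.32 to -3.07 on day 0 (median -3.96), -3.91 to -1.69 on day 10 (median -3.065) and -2.72 to 0.58 on day 22 (median -0.97). Only days 22 and 0 did not overlap. Fcgr1 rose by 3.03 ± 0.51 log2, or 8.16-fold, between them (adjusted p = 0.00184, and 0.00883 with the value table's batches), which a normexp correction lowered to 1.93. The difference of 1.25 ± 0.51 between days 10 and 0 had adjusted p = 0.101, 0.216 with the value table's batches and 0.0235 with their replicate block. That of 1.78 ± 0.51 between days 22 and 10 had adjusted p = 0.0637, 0.191 and 0.0322 in the same fits. With the array files' batches as a replicate block, limma gave these 2 differences adjusted p = 0.0340 and 0.0243.

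Fcer1g, the shared chain, lay at 0.39 to 2.28 on day 0 (median 1.66), 2.22 to 3.76 on day 10 (median 2.99) and 3.17 to 5.87 on day 22 (median 4.57). Days 0 and 10 overlapped by 1 array of day 10, and 4 of 6 arrays of day 22 lay above all of day 10. Fcer1g rose by 3.15 ± 0.38 log2, or 8.88-fold, between days 0 and 22 (adjusted p = 0.000389 and 0.00356). The difference of 1.60 ± 0.38 between days 10 and 0 had adjusted p = 0.0162, 0.0809 with the value table's batches and 0.0338 with their replicate block. That of 1.55 ± 0.38 between days 22 and 10 had adjusted p = 0.0411, 0.177 and 0.0753.

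Of the 5 genes, 4 were called higher on day 10 than on day 0, where 11.4% of all features were, and 2 were called higher under both placements, against 5.75% of features. With the value table's batches as a replicate block all 5 were called, against 7.43% of features. On day 22 against day 10, 4 of 5 were called higher with the array files' batches, against 4.2% of features. Under both placements 0 were, against 0.49% of features, although limma gave all 5 an unadjusted p under 0.05 with either placement and called 4 with the value table's replicate block (1.39% of features). On day 22 against day 0 all 5 were called higher, against 17.1% of features, all 5 under both placements, against 12.6%, and all 5 with the replicate block, against 13.6%. None of the 5 had a difference below 0 in these comparisons, while 17.8%, 5.43% and 27.3% of features were called lower, or 7.72%, 1.45% and 18.6% under both placements. The arrays of the later day all lay above those of the earlier day for 2 of 5 genes in the comparison of days 10 and 0 (7.92% of features), 2 of 5 in that of days 22 and 10 (3.15%) and 5 of 5 in that of days 22 and 0 (9.58%). In bulk RNA, more cells of a type and more RNA per cell cannot be told apart.

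**Figure D2:**
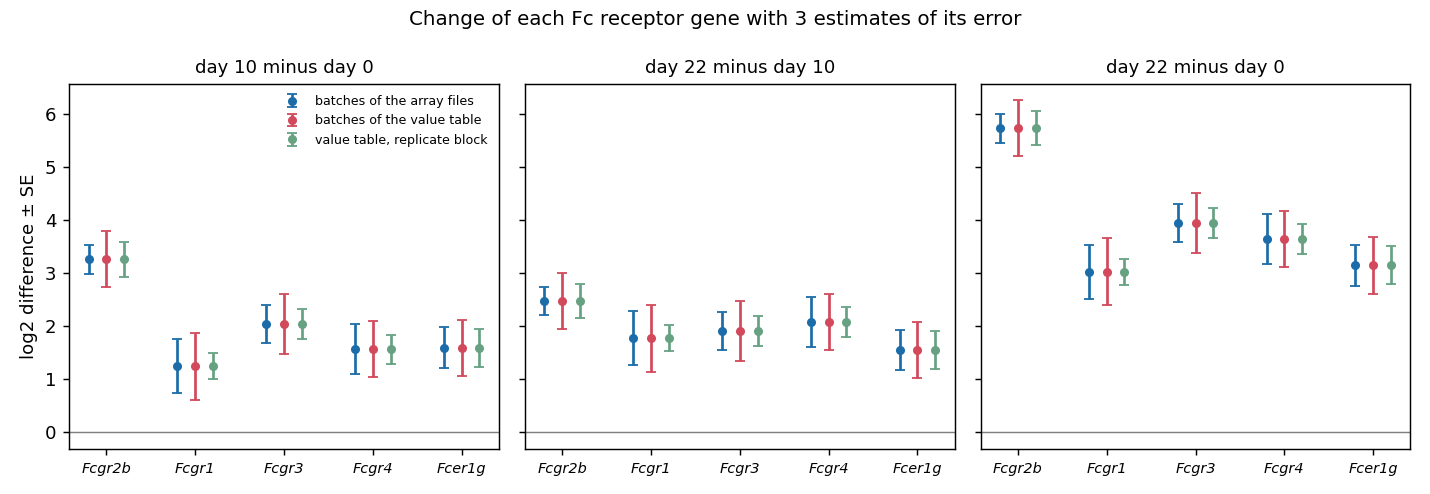
Log2 difference of each Fc receptor gene in 3 comparisons, with error bars of 1 SE from limma with the array files' batches, with the value table's batches, and with the value table's batches as a replicate block. Fcgr2b lies highest in each panel, at 3.26, 2.48 and 5.74, and its SE is wider with the value table's batches.

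All 3 days were present on slides 1 and 2, and the 5 genes were higher on the later day on both slides. Between days 22 and 0 the differences were 4.23 to 6.68 on slide 1 and 2.13 to 5.54 on slide 2. Between days 10 and 0 they were 1.40 to 3.79 and 1.44 to 3.38, and between days 22 and 10 they were 2.57 to 3.61 and 0.69 to 2.17. The last interval thus differed most between slides, as for Fcgr1 at 3.33 on slide 1 and 0.69 on slide 2. Slide 1 held 2 arrays of day 22, both of batch 1. The array with the highest level of day 22 was array 1 of batch 1 for all 5 genes, and the lowest was array 1 of batch 2 for the 4 receptors and array 1 of batch 3 for Fcer1g.

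The inhibitory receptor was set against each activating receptor by the difference of their log2 levels on the same array. Only the change of this difference between days can be read. Against Fcgr3, it averaged 0.42 ± 0.13 on day 10 and -0.80 ± 0.023 on day 0 (SD, n = 3 batches), a change of 1.22, so Fcgr2b gained 2.33-fold over Fcgr3. Single arrays of day 0 spanned -1.06 to -0.48. Against Fcgr1 it averaged 3.48 ± 0.19 on day 10 and 1.47 ± 0.20 on day 0, a change of 2.01 or 4.04-fold. Against Fcgr4 it averaged 3.81 ± 0.19 on day 10 and 2.11 ± 0.21 on day 0, a change of 1.70 or 3.24-fold, which was 2.41 with the first technical arrays only and 0.98 with the second. These SDs are with the array files' batches, which gave the changes an SE of 0.075 against Fcgr3, 0.16 against Fcgr1 and 0.16 against Fcgr4. With the value table's batches the SE was wider, at 0.15, 0.33 and 0.42. For each of the 3 activating receptors all 6 arrays of day 10 lay above all 6 of day 0. The levels of Fcgr2b alone already did so. The share of other gene pairs with such a separation was not computed, here or for day 22.

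Between days 22 and 0 the within-array difference changed by 1.79 ± 0.21 (SE) against Fcgr3, 2.71 ± 0.46 against Fcgr1 and 2.09 ± 0.43 against Fcgr4, and again no arrays overlapped. With the value table's batches these SEs were 0.19, 0.32 and 0.48. The step from day 10 to day 22 was smaller, at 0.57 ± 0.22 against Fcgr3, 0.70 ± 0.46 against Fcgr1 and 0.40 ± 0.43 against Fcgr4, and 3 of 6 arrays of day 22 lay above all of day 10 for each. Two-sided exact permutation tests over 3 against 3 batch values gave p = 0.1, the smallest they can give, for each pair in both comparisons with day 0, and 0.129 after adjustment over the 9 tests. For days 22 and 10 the exact p was 0.1 against Fcgr3 (0.129 adjusted) and 0.4 against Fcgr1 and Fcgr4 (0.4 adjusted). With the value table's batches these permutation tests gave unadjusted p = 0.1 against Fcgr3, 0.3 against Fcgr1 and 0.5 against Fcgr4. This design cannot reach 0.05. The step from day 10 to day 22 moved most with the arrays used. On slide 1 alone it was 0.052 against Fcgr3, -0.44 against Fcgr1 and -0.72 against Fcgr4, and on slide 2 alone 0.91, 1.48 and 0.98. With 1 batch left out it was 0.40 to 0.76 against Fcgr3, 0.44 to 1.14 against Fcgr1 and 0.18 to 0.81 against Fcgr4. The highest of these came without batch 1 of day 22 for Fcgr1 and Fcgr4. With normexp it was 1.13 against Fcgr1 and 0.93 against Fcgr4.

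**Figure D3:**
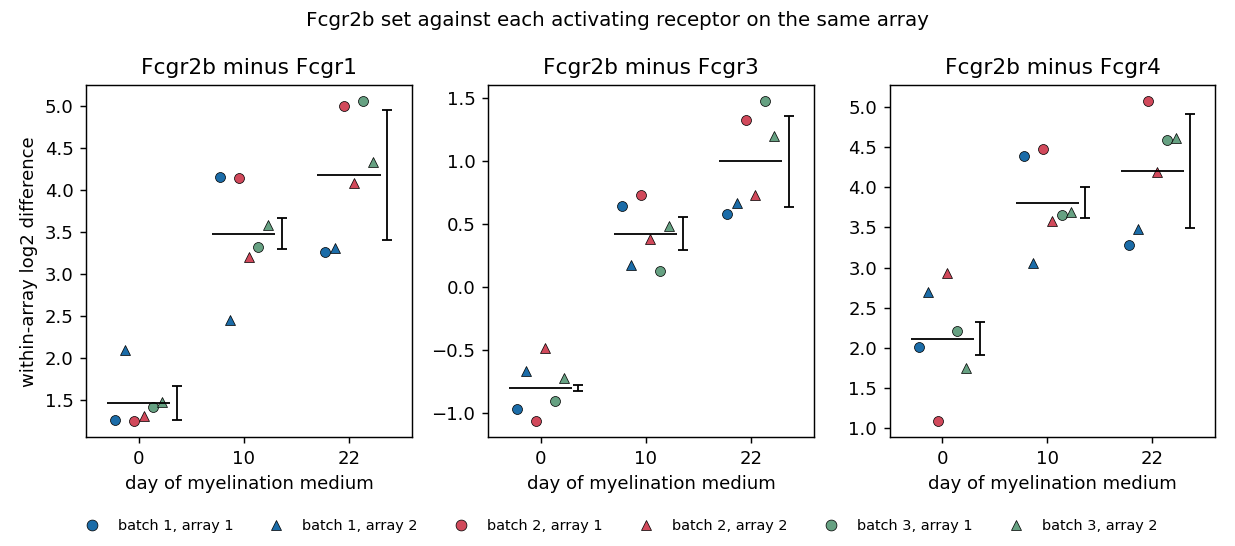
Fcgr2b level minus the level of Fcgr1, Fcgr3 or Fcgr4 on the same array, in log2, by day of myelination medium. Points are arrays, coloured by batch and shaped by array. Bars are means of 3 batches and error bars the SD between batches with the placement of the array files. All arrays of days 10 and 22 lie above those of day 0 in each panel, and days 10 and 22 overlap. The share of other gene pairs with such a separation was not computed.

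The probes of Fcgr2b and Fcgr3 target genes with closely similar extracellular parts, and whether either probe binds the other transcript was not tested. With 1 probe per gene, splice forms of Fcgr2b were not told apart.

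Csf1r, the receptor that macrophages need for survival, served as a measure of macrophage RNA on the same array. Its brightest probe rose by 2.59 ± 0.42 log2 between days 0 and 22 (adjusted p = 0.00149 and 0.0117), while its other probes gave 2.68 and 0.72. Relative to the brightest probe, Fcgr2b gained 3.15 ± 0.26 (SE with the value table's batches) between days 0 and 22, of which 1.93 ± 0.23 came by day 10 and 1.22 ± 0.31 after it. Fcgr3 gained 1.36 ± 0.12, Fcgr4 1.06 ± 0.34, Fcer1g 0.56 ± 0.17 and Fcgr1 0.44 ± 0.15 over the whole course. For Fcgr2b and Fcgr3 this difference did not overlap between any of the days, and the share of all features for which that holds was not computed. Fcgr1 moved by -0.082 ± 0.13 relative to Csf1r between days 0 and 10, within its error, and by 0.52 ± 0.16 between days 10 and 22. Among the 11 macrophage markers that rose between days 0 and 22, Csf1r had the smallest rise. The 13 tested had a median of 3.02, so gains over this course would be smaller against any other marker that rose. Of these 13 markers, 0 had a larger change than Fcgr2b between days 0 and 22. For Fcgr3 it was 1, for Fcgr4 2, and for Fcgr1 and Fcer1g 6 each. Between days 0 and 10 Lyz2 and Fcgr2b both changed by 3.26, and the change was larger for Lyz2 with normexp (3.12, against 2.62 for Fcgr2b) and on slide 2 alone (3.74, against 3.38). Fcgr2b stood at rank 18 of 22855 features by its change between days 0 and 22.

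**Figure D4:**
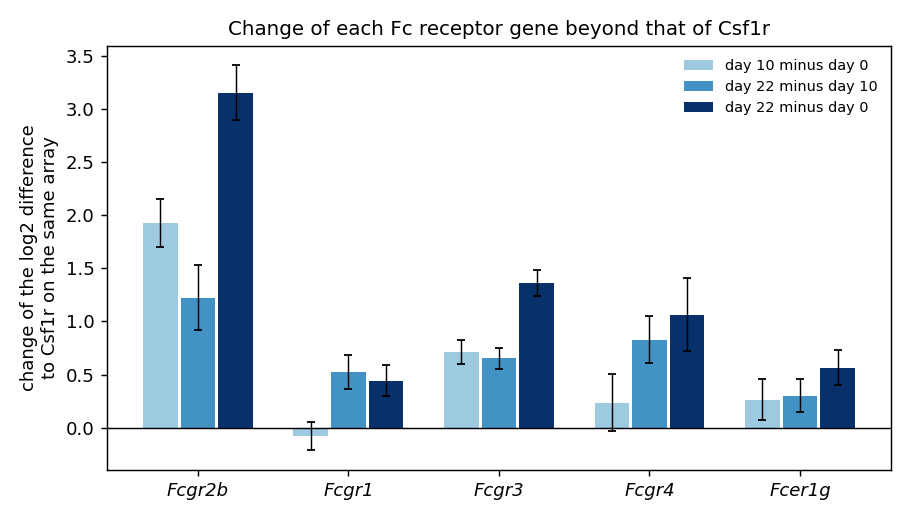
Change of each gene's log2 difference to Csf1r on the same array, for 3 comparisons of days. Bars start at 0 and error bars are 1 SE over 3 batches of the value table. Fcgr2b reaches 3.15 between days 0 and 22, and Fcgr1 lies at -0.082 between days 0 and 10.

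The 5 genes also varied together among arrays of the same day. Across the 18 arrays Pearson's r between pairs of them was 0.886 to 0.985. After each day's mean was removed it was 0.701 to 0.950 over the 10 pairs (median 0.913), and r with Csf1r was 0.872 to 0.977. Among the 10 pairs the lowest was between Fcgr2b and Fcgr4 and the highest between Fcgr3 and Fcer1g. These are descriptions across arrays that share batches and scaling.

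Of 14518 features with a symbol, those whose levels over the 18 arrays were most like Fcer1g were Tyrobp, the other ITAM adaptor of myeloid cells (r = 0.997), the leukocyte actin-bundling gene Lcp1, the complement gene C1qc, the blood-lineage cofactor Lmo2 and Trem2, a receptor that pairs with Tyrobp (r = 0.996 for each). After removal of day means r for these was 0.986 to 0.993. Those most like Fcgr2b were the phosphatase gene Cdc14b (r = 0.982), Clec4n, a lectin receptor that pairs with the Fcer1g chain (0.981), the matrix-associated gene Aebp1 (0.980), the phagosome metal transporter Slc11a1 (0.979) and Ctla2b (0.9785). Within days these had r of 0.731 to 0.885, lower than for the neighbours of Fcer1g. Their changes between days 0 and 22 were unequal, with 4.84 for Clec4n, 4.70 for Slc11a1 and 4.77 for Ctla2b, but 1.91 for Aebp1 and 1.20 for Cdc14b.

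Fcgr2b, Fcgr4, Fcgr3 and Fcer1g lie in this order on chromosome 1, and Fcgr1 is on chromosome 3. Other protein-coding genes lie between Fcgr2b and Fcer1g in the RefSeq table. Of these, Cfap126, a ciliary gene, and Pcp4l1 rose between days 0 and 22, by 1.14 (adjusted p = 5.72e-05 and 0.000264) and 2.87 (2.42e-05 and 0.00358). Sdhc, Nr1i3, Tomm40l and Apoa2 had differences of -0.01 to 0.26 with adjusted p of 0.246 or more. Fcrlb, an Fc receptor-like gene on the other side of Fcgr2b, had a difference of 0.20 ± 0.12 (adjusted p = 0.221).

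Of 13 other Fc receptors listed, 7 were tested and 3 rose between days 0 and 22 under both placements, with a median difference over the 7 of 0.20, against -0.08 over all features. They were Fcrls, a receptor-like gene of macrophages and microglia (2.15 ± 0.42), Fcgrt, the neonatal Fc receptor that recycles IgG (1.90 ± 0.22), and Trim21, a cytosolic antibody receptor (1.05 ± 0.12). Fcrl1, an Fc receptor-like gene that did not pass the filter, was well above background on 5 of 6 arrays on day 22, against 0 on day 0, with levels of -5.66 to -2.49 on day 22 and -7.79 to -6.41 on day 0. Fcer1a and Ms4a2, the IgE-binding and β chains that join Fcer1g in the mast cell IgE receptor, were well above background on 0 of 18 arrays. Of 9 immunoglobulin chain genes only Jchain had a matched probe, and it was not well above background on any array.

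Among other ITAM adaptors and receptors that pair with them, 12 of 17 were tested, 9 rose and Siglech fell between days 0 and 22. Their median was 3.35, or 2.89 with 3 genes that were not well above background on day 0 set at their bound. Clec4d and Clec4n, lectin receptors that use the Fcer1g chain, rose by 5.23 ± 0.35 and 4.84 ± 0.32. Cd300lb, which pairs with Tyrobp, was not well above background on day 0 and was at least 13.7-fold higher on day 22 (measured means -1.81 on day 22 and -7.13 on day 0, adjusted p = 0.000106 and 0.000380), and normexp gave a log2 difference of 2.14. Such a bound sets the day 0 arrays at the lowest signal that was well above background on each. Tyrobp itself rose by 3.39 ± 0.39.

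Downstream of the ITAM, 24 of 28 kinases and adaptors were tested, of which 11 rose and Fyn fell (-0.58 ± 0.097) between days 0 and 22, with a median of 0.72. Blnk, an adaptor that Syk phosphorylates, rose by 3.83 ± 0.43, Pik3cg, a catalytic PI3-kinase subunit of leukocytes, by 3.40 ± 0.51 and Lat2, a membrane adaptor, by 3.20 ± 0.47. Syk rose by 2.80 ± 0.42 and Lyn, a Src-family kinase that acts on both ITAM and ITIM, by 1.09 ± 0.23.

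On the inhibitory side, 6 of 10 tested phosphatases and adaptors rose between days 0 and 22, with a median of 1.20. Inpp5d, the phosphatase that Fcgr2b recruits, rose by 3.01 ± 0.45, Sla, an adaptor that dampens kinase signalling, by 2.18 ± 0.41 and Ptpn6, the phosphatase SHP-1, by 2.10 ± 0.40. Of 13 other receptors tested from the list of ITIM carriers, 10 rose and Pecam1 fell (-0.30 ± 0.084), with a median of 1.40. Pirb and Lilrb4a, inhibitory immunoglobulin-like receptors of myeloid cells, rose by 4.77 ± 0.41 and 4.47 ± 0.41. The probe used for Siglec1, a macrophage sialic acid receptor whose tail has no ITIM, rose by 3.62 ± 0.47, while a dimmer probe that did not pass the filter gave 0.76.

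Of the phagocytosis and oxidase genes, 15 of 17 were tested, 10 rose and Marcks fell (-0.96 ± 0.067) between days 0 and 22, with a median of 2.42. Cybb, the catalytic subunit of the phagocyte oxidase, rose by 3.79 ± 0.56, its partner Ncf4 by 3.51 ± 0.35 and the leukocyte myosin Myo1f by 3.25 ± 0.38. Of 11 myeloid transcription factors tested, 9 rose, with a median of 1.80. Irf5 rose by 3.28 ± 0.42, Irf8 by 3.15 ± 0.43 and Spi1, which encodes PU.1, by 3.09 ± 0.40. Tfec was not well above background on day 0 and was at least 6.31-fold higher on day 22 (measured means -2.92 on day 22 and -6.36 on day 0, adjusted p = 0.000216 and 0.000369), and normexp gave a log2 difference of 1.13.

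Interferon gamma is a known inducer of Fcgr1 and Fcgr4 in macrophages. Of 18 tested genes of its response 10 rose between days 0 and 22, with a median of 0.65. Gbp5, a guanylate-binding protein, rose by 2.20 ± 0.27, and the immunoproteasome genes Psmb8 and Psmb9 by 2.12 ± 0.15 and 1.87 ± 0.16. Ifng was not well above background on any array.

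All of these list counts are for days 22 and 0 under both placements, where 12.6% of features were called higher and 18.6% lower, and they depend on which genes were listed. Some genes counted as risen passed the filter on dim probes only through later days, on which they were high. Spi1 and Pik3cg passed through day 22 alone, with 3 of 6 arrays well above background on day 0 and 5 of 6 on day 10. Clec4e, Sirpb1a, Tfec and Pilra also passed through day 22 alone, with 0, 0, 0 and 3 of 6 arrays on day 0. The neutrophil marker S100a8 did so too. Cybb, Sla, Siglec1 and Vav3 had 3 of 6 arrays well above background on day 0, Cd33 and Dock2 had 4 and Cd300lb had 0. For dim genes the size of the difference depended on the background correction. With normexp it was 1.30 for Pik3cg, 1.21 for Spi1, 1.02 for Sla, 1.92 for both Cybb and Siglec1, 1.91 for Lat2, 1.34 for Gbp5, 0.65 for Lyn and -0.21 for Zbtb46, over 1.5 times nearer to 0 for each. Between days 10 and 0 the genes that rose under both placements numbered 0 of 7 other Fc receptors, 4 of 12 ITAM adaptors and partners, 1 of 24 kinases and adaptors, 0 of 10 inhibitory phosphatases and adaptors, 3 of 13 in the ITIM list, 2 of 15 effectors, 2 of 11 transcription factors and 3 of 18 response genes. With the value table's batches as a replicate block the same lists had 1, 6, 7, 1, 5, 9, 6 and 5 genes called higher, where 7.43% of all features were. Between days 22 and 10 only Sirpb1a, a partner of Tyrobp, and Tfec rose under both placements among the genes of these lists. Both passed the filter only through day 22, the higher day, with 4 and 5 of 6 arrays well above background on day 10. Of all features 0.49% were called higher under both placements. The replicate block called 0, 5, 1, 0, 4, 4, 6 and 1 genes higher, with 1.39% of all features.

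**Figure D5:**
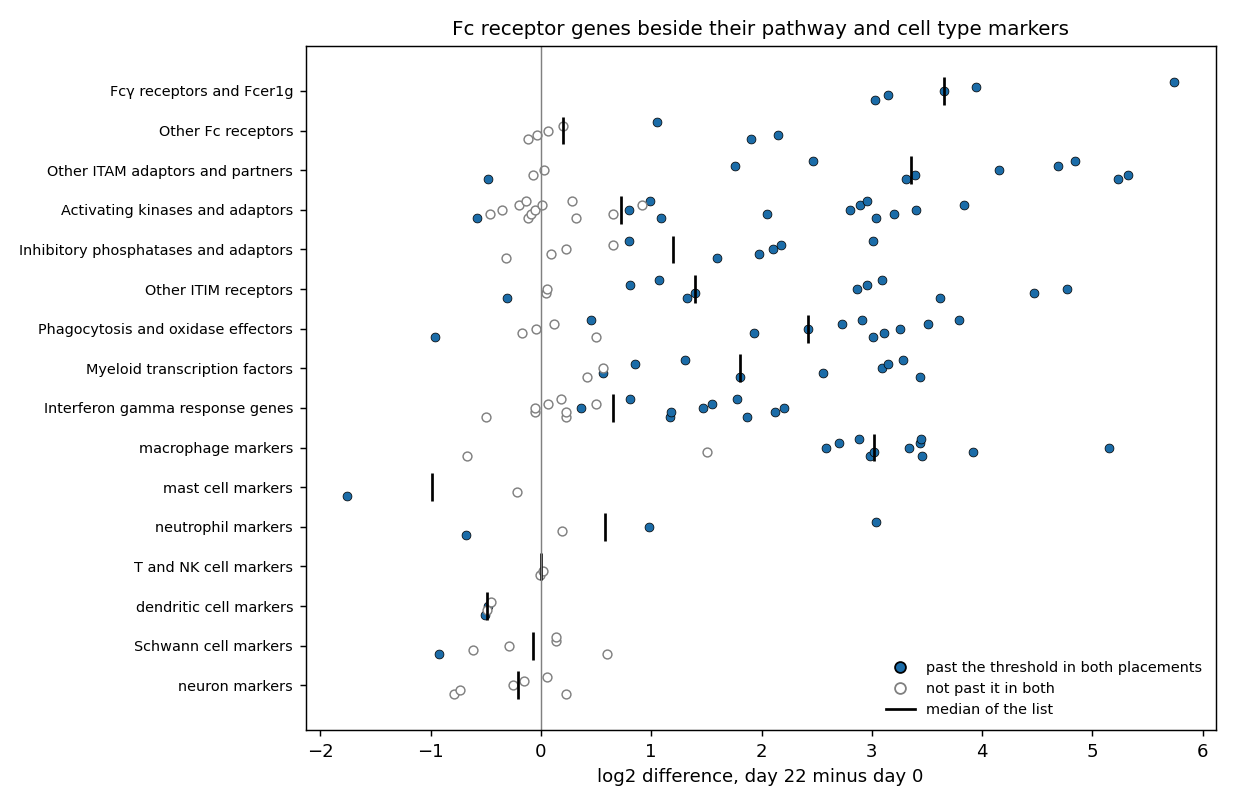
Log2 difference between days 22 and 0 of every tested gene of each list. Filled points passed an adjusted p of 0.05 under both placements of the arrays, open points did not, and black lines are list medians. The Fc receptor genes lie at 3.03 to 5.74, and all 5 are filled.

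Markers of cells that can carry these receptors moved with them in part. Of 14 macrophage markers 13 were tested and 11 rose between days 0 and 22, with a median of 3.02, led by Lyz2, the lysozyme of myeloid cells (5.15 ± 0.38), the protease gene Ctss (3.92 ± 0.48) and Cd14 (3.45 ± 0.35). Their summed level was 6.00 to 6.46 on day 0, 6.61 to 7.19 on day 10 and 6.97 to 8.72 on day 22, without overlap between days 0 and 10. Most of the sum on day 0 came from the bright probe of Itgam (5.48 to 6.16 on day 0, against 3.79 to 5.85 on day 22). Itgam and Cx3cr1 did not pass the threshold (-0.67 ± 0.29 and 1.51 ± 0.58), although Cx3cr1 had an adjusted p of 0.0433 with the value table's replicate block. The part of macrophage RNA in the receptor changes was not tested beyond the comparison with Csf1r.

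Of 8 mast cell markers 2 were tested, with a summed level of -0.89 to 0.54 on day 0, -0.997 to -0.565 on day 10 and -1.86 to -1.02 on day 22, and Kit, also a gene of melanocytes, fell by 1.76 on the log2 scale. Of 9 neutrophil markers 4 were tested, with a summed level of 5.43 to 6.52, 5.33 to 5.58 and 5.30 to 5.62 on days 0, 10 and 22, most of it from the bright probe of Csf3r (5.17 to 5.54 on day 22, against 5.36 to 6.49 on day 0). S100a8 was not well above background on day 0 and at least 2.48-fold higher on day 22 (measured means -4.28 on day 22 and -7.32 on day 0, adjusted p = 5.93e-06 and 0.000172), and normexp gave a log2 difference of 0.60. Camp rose by 0.98 ± 0.14 and Csf3r fell by 0.68, while Ngp was not well above background on any array.

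Of 6 B cell markers 0 passed the filter, and Ms4a1 and Pax5 were not well above background on any array. Cd79b was well above background on 3, 3 and 4 of 6 arrays on days 0, 10 and 22, and Cd79a on 2, 2 and 1. Of 8 T and NK cell markers 2 were tested, Cd3e and Lck, both well above background on all 18 arrays. Their differences between days 22 and 0 were 0.014 ± 0.26 and -0.012 ± 0.15. Ncr1 and Klre1 were well above background on 1 array each, and Cd3d, Cd3g, Cd2 and Cd8a on none. The dendritic cell markers Zbtb46 and Siglech fell by 0.51 and 0.48 between days 0 and 22, and Xcr1 was not well above background on any array. Their 4 tested genes summed to 6.47 to 7.13 on day 0, 6.32 to 6.58 on day 10 and 6.24 to 6.46 on day 22, nearly all of it from Siglech (6.22 to 6.45 on day 22, against 6.45 to 7.12 on day 0). A dimmer Siglech probe that did not pass the filter gave a difference of 0.35. Among Schwann cell markers Erbb3 fell by 0.93, and Sox10 and S100b had differences of -0.62 ± 0.16 and 0.60 ± 0.21 that passed with the array files' batches (adjusted p = 0.0154 and 0.0440), missed with the value table's (0.0504 and 0.0697), and passed with those as a replicate block (0.0158 and 0.0440). Of 6 neuron markers 0 passed the threshold between days 22 and 0 under both placements of the arrays, and with the array files' batches the smallest adjusted p was 0.0703 for Nefm (-0.79 ± 0.31), which had 0.00282 with the value table's replicate block.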

How the data were processed

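Explants were profiled on 18 Agilent 1-colour arrays from 100 ng of total RNA labelled with Cy3. The intensity values were made by the authors' scanner software, Feature Extraction 10.7.1.1 per the file headers, which subtracted background. The deposited value table holds the authors' normalized intensity values, whose 18 columns share 1 distribution. Each column was matched to the array files by rank correlation, and 6 matched the array of their own sample while 12 matched another of the same day.

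Control spots and outlier flags were left out, each probe's spots were averaged, and log2 intensity minus log2 of the array's 75th percentile was computed. A probe was tested if every array of some day scored it well above background, and the brightest passing probe stood for a gene, which left 22855 features. The 2 arrays of a batch were averaged and days compared with limma 3.58.1 (R 4.3.3) and Benjamini-Hochberg adjustment over all features, at 0.05. Within-array receptor differences were tested with exact permutation tests over batches (scipy 1.17.1). The batches are separate pools of embryos and the arrays within them are technical, so 3 values per day limit the precision. Batches are numbered by mouse in the sample titles, while the deposited design text says that each stands for another pool of embryos. Deviations of same-numbered batches correlated at -0.13 to 0.37 over 9 pairs with the array files' placement and -0.08 to 0.46 with the value table's.

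The genes and lists were chosen with earlier results of these data known. Named genes are the 5 receptor genes, the 3 genes with the largest change between days 22 and 0 among those called in each list, 10 genes taken for their role, and the 5 features most like Fcer1g and Fcgr2b. Fcrl1, Cd79a, Cd79b, Cd3e, Lck, Ncr1, Klre1, Nefm, Fyn, Pecam1, Marcks, Sirpb1a, Clec4e, Pilra, Vav3, Cd33 and Dock2 were named after their values were seen, as were those given as not above background. Normexp used the median signal, since the array files hold no mean signal. Accessions were matched to RefSeq symbols for 26582 of 55681 probes.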

Additional observations from a re-analysis of the deposited data

Results flagged for a closer look

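The difference between Fcgr2b and Fcgr1 on day 0 was set off by array 2 of batch 1, on slide 1. It stood at 2.09 log2, while the other 5 arrays of day 0 lay at 1.25 to 1.48. Its gap to the nearest array was 0.7201 of the whole range, above Dixon's critical value of 0.625 for 6 samples. The day 0 mean was 1.47 with the array and 1.34 without it, so without it the difference on later days would stand further from day 0. Among the 24 groups of arrays screened this was 1, and chance gives about 1 in 20.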

How the results depend on the processing

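All 5 genes kept the direction of change in every comparison and alternative run, but the number called higher moved. For days 10 and 0, 4 were called, and 2 with the value table's batches, 1 with the first technical arrays only, 1 with the authors' values in the value table's batches, and 0 on slide 1 or slide 2 alone (3 and 4 at an unadjusted p under 0.05 in limma). Leaving out batches gave 2 to 5, with 2 without batch 2 of day 0 and without batch 1 of day 10. For days 22 and 10, 4 were called, and 0 with the value table's batches, with the first or the second technical arrays only, with the authors' values in the value table's batches, and on slide 1 or slide 2 alone (5, 3, 5, 5, 5 and 2 at an unadjusted p). It was 2 without a filter on dim probes, and 1 to 5 with a batch left out, falling to 1 or 2 without batches 2 or 3 of day 0, any batch of day 10 or batch 2 of day 22. For days 22 and 0, 5 were called, 3 on slide 2 alone, and 5 to 5 with a batch left out. With the value table's batches as a replicate block 5, 4 and 5 genes were called in these comparisons, and with the array files' batches as a block 5, 5 and 5. The step of Fcgr2b against Fcgr1 and Fcgr4 from day 10 to day 22 reversed on slide 1 alone, at -0.44 and -0.72, where day 22 had 1 batch. The cause of these shifts was not tested. The within-array differences were not rerun with a random block, slide as a block, other filters or the mean of probes. Low signal on day 0 limits the fold changes of Fcgr1, Fcgr4 and the dim genes of the lists.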
